A study of Mus musculus with 56 samples.

Results

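A set of 37 mouse genes that interferon induces and that act against viruses was followed in blood progenitor cells of wild-type and leukemia-prone mice. The genes were taken by symbol from a list chosen with earlier results of these data known. Shares over all tested genes are therefore given beside its counts as a description, not as an unselected test. Of the 37 genes, 36 were found among the 24424 genes of the expression table. All 36 lay above the filter on low values and were among the 12133 genes tested. Rnf213 was not analysed here. RNA was sequenced from bone marrow progenitors of C57BL/6 mice, either wild-type (WT) or Tet2-/-Flt3ITD (T2F3), which lack the DNA demethylase Tet2 and carry an internal tandem duplication in the cytokine receptor Flt3. Multipotent progenitors (MPP), early cells that can still form several blood lineages, were sorted as lin- Sca+ cKit+ CD48+ CD150-, and granulocyte-macrophage progenitors (GMP), their more committed myeloid descendants, as lin- Sca- cKit+ CD34+ CD16/32+. The groups held 4 libraries of WT MPP, 3 of T2F3 MPP, 5 of WT GMP and 3 of T2F3 GMP. The labels name no age, treatment or number of Flt3ITD copies, and do not say whether libraries came from separate or pooled animals, so each p-value reflects only how these libraries vary, part of which may be technical. Values are the regularized log2 levels of the deposited table. A gene is called higher or lower where its adjusted p in limma, with Benjamini-Hochberg adjustment over all tested genes, was under 0.05.

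Type I interferons bind a receptor on the cell surface whose kinases, Jak1 and Tyk2, activate transcription factors of the STAT family, among them Stat2. With Irf9 these form a complex that binds a short element, the interferon-stimulated response element, in the promoters of many genes. Their products sense viral RNA, degrade it, block its translation or tag proteins with the ubiquitin-like modifier Isg15. Blood stem and progenitor cells express a part of this programme at rest, and interferon is known to change how such cells divide.

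The core of the response element was searched in RefSeq promoters (GRCm38.p6) to show where it lies in these genes. The core searched was GAAANNGAAA, on either strand (read on the reverse strand it is TTTCNNTTTC), in the 250 bases before each annotated start. Of the 36 genes 26 had a RefSeq promoter, and 10 of these held the core. They were Stat2, Oas1a, Oas1g, Oas3, Ifit1, Ifit3, Isg15, Trim30a, Rsad2 and Bst2. Over all genes with a promoter 3.46% held it, and over the tested genes 3.32%. The 6 stretches below belong to the genes with the core whose T2F3 to WT difference was largest. Each is printed 5′ to 3′ on the gene's strand, with the matched bases in capitals and overlapping matches run together.
Ifit3: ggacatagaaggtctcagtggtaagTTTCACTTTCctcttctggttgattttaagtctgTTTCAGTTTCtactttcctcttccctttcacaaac
Rsad2: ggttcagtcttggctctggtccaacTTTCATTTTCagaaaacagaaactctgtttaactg
Isg15: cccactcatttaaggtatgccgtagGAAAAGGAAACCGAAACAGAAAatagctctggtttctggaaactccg
Ifit1: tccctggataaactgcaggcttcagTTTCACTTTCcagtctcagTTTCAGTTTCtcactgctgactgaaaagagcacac
Oas3: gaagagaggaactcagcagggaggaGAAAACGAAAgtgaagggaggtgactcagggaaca
Oas1g: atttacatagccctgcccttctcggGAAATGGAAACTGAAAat

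The Ifit3 stretch is chr19:34583348-34583441 on the plus strand and the Ifit1 stretch chr19:34640760-34640838 on the plus strand. Rsad2 is shown at chr12:26456538-26456597, Isg15 at chr4:156200850-156200921, Oas3 at chr5:120777700-120777759 and Oas1g at chr5:120887614-120887656, all on the minus strand. Ifit3 and Ifit1 each held 2 separate cores, Isg15 a run of 3 overlapping cores and Oas1g a run of 2. The cores lay 156 to 113 bases before the start in Ifit3 and 18 to 3 bases before it in Oas1g. Oas1a has the same printed letters as Oas1g, followed by 2 further bases. A match describes the letters in this window and is not a measured binding site. Dhx58, Zbp1, Oas2, Usp18, Parp9, Parp14, Mx1, Mx2, Ifi27l2a and Rtp4 had no entry.

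T2F3 and WT name the libraries as labelled. Summed over the gene, Tet2 ranged from 9.67 to 9.90 in T2F3 MPP and from 9.71 to 9.89 in WT MPP. In GMP, Tet2 ranged from 9.88 to 10.30 in T2F3 and from 9.87 to 10.19 in WT. The labels do not say which exons are deleted, so the level of the whole gene does not check the genotype. Flt3, the other gene of the genotype, averaged 11.38 in WT MPP, 11.32 in T2F3 MPP, 8.81 in WT GMP and 10.09 in T2F3 GMP. It was higher in T2F3 GMP by 1.28 ± 0.11 (SE; 2.43-fold, limma adjusted p = 8.23e-07) and not called in MPP (adjusted p = 0.685). The difference of these effects was 1.34 (adjusted p = 4.66e-04). Whether the T2F3 GMP gate held other cells than the WT GMP gate was not tested. Of the sorting markers, the gene for Sca-1, Ly6a, averaged 7.70 ± 0.15 (SD, n = 4) in WT MPP and 7.12 ± 0.14 (SD, n = 5) in WT GMP. Ly6a was also higher in T2F3 than in WT, by 0.63 ± 0.12 (SE) in MPP and by 0.49 ± 0.11 in GMP (limma, adjusted p = 7.70e-04 and 0.00655). Fcgr3, a CD16/32 gene, averaged 8.89 in WT MPP and 11.01 in WT GMP. Kit averaged at least 11.29 in every group. Slamf1, which encodes CD150, lay below the filter. Ribosomal protein genes, followed as a sign of library make-up, had a summed level of 18.48 to 18.56 in WT MPP, 19.20 to 19.25 in T2F3 MPP, 18.70 to 19.79 in WT GMP and 18.87 to 19.76 in T2F3 GMP, with the first WT GMP and the second T2F3 GMP library above the others of their groups.

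The antiviral genes were raised in T2F3 progenitors of both stages. In MPP 23 of the 36 genes were higher in T2F3 and 1 was lower, where 20.7% of all tested genes were higher and 19.6% lower. In GMP 26 were higher and 0 lower, where 9.25% of all tested genes were higher and 6.04% lower. At an unadjusted p under 0.05 the GMP counts were 29 higher and 0 lower. The median difference over the 36 genes was 0.64 on the log2 scale in MPP and 0.74 in GMP, against -0.015 and -0.019 over all tested genes. With the ribosomal protein level as a covariate 20 genes were higher in MPP and 27 in GMP, and without the first WT GMP and the second T2F3 GMP library 23 and 22. The ribosomal protein level itself differed between the genotypes in MPP, so the covariate is a weak check there. Differences above 2-fold were called for 8 genes in MPP (3.67% of all tested genes) and for 12 in GMP (2.79%). Libraries of the genotypes did not overlap, with T2F3 above WT, for 22 genes in MPP (28.1% of all tested genes) and 20 in GMP (9.52%). Ifit3 passed the filter only through the T2F3 libraries. It is in the main counts, in those above 2-fold and in those without overlap, and carries no weight there. Without Ifit3, 22 of 35 genes were higher in MPP and 25 of 35 in GMP.

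**Figure D1:**
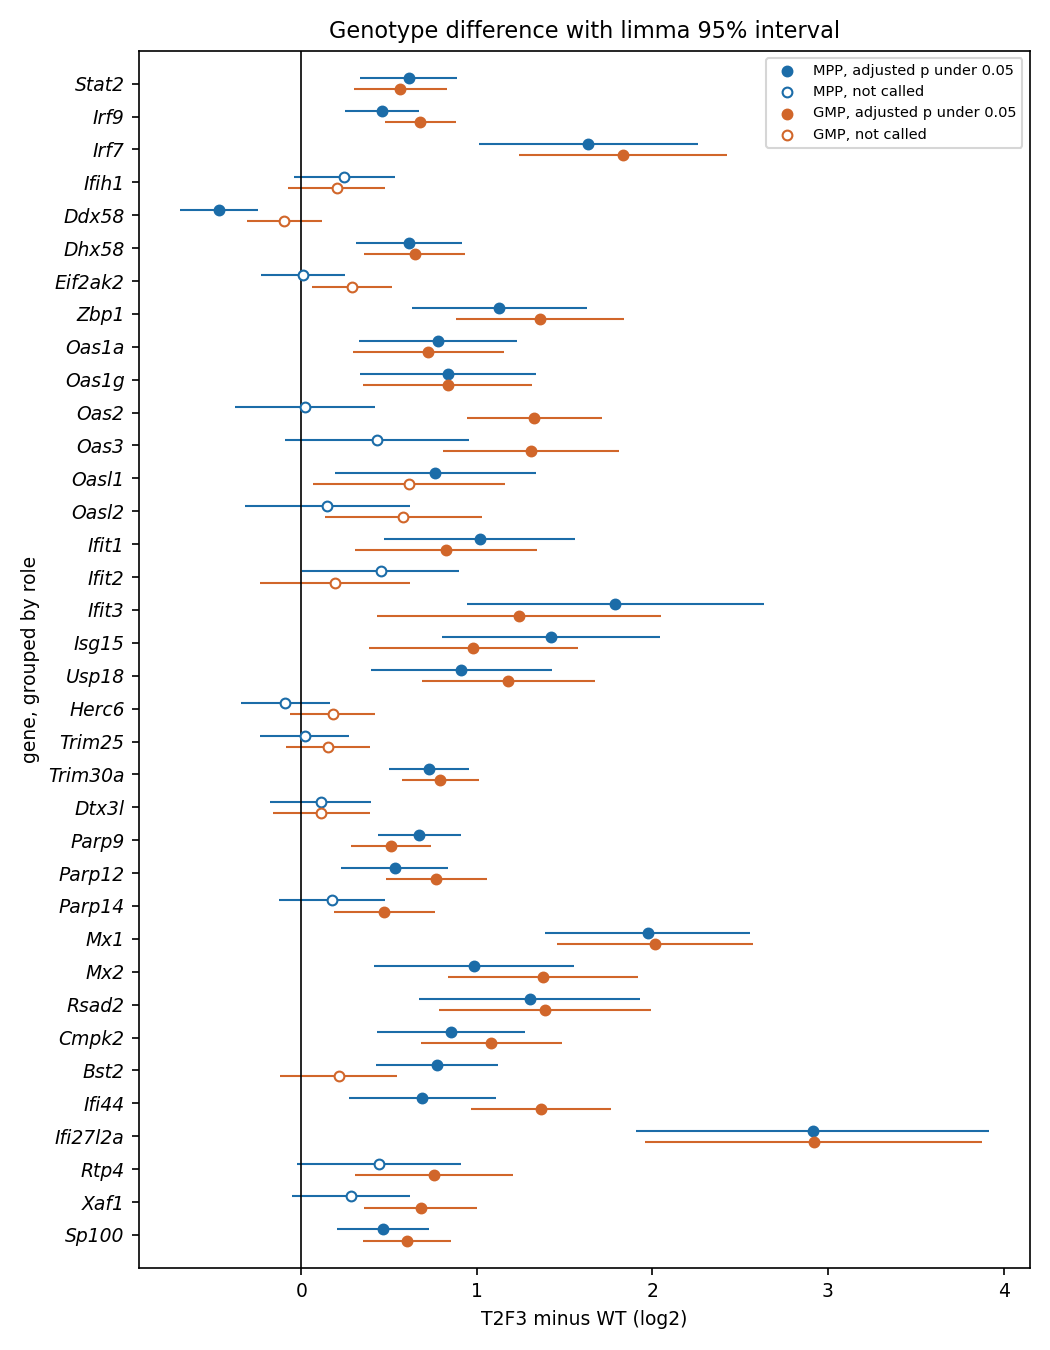
Difference between T2F3 and WT for each of the 36 genes, on the log2 scale, in MPP (blue) and GMP (orange), with limma's 95% interval as a line and filled points where the adjusted p was under 0.05. Ifi27l2a and Mx1 lie farthest to the right in both populations, followed by Ifit3 in MPP and by Irf7 in GMP. Ddx58 in MPP is the 1 filled point left of 0.

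The 2 populations shared 21 genes called higher in T2F3, and 6.67% of all tested genes were called higher in both. These 21 were Stat2, Irf9, Irf7, Dhx58, Zbp1, Oas1a, Oas1g, Ifit1, Ifit3, Isg15, Usp18, Trim30a, Parp9, Parp12, Mx1, Mx2, Rsad2, Cmpk2, Ifi44, Ifi27l2a and Sp100. Ifit3 is counted here though it passed the filter only through the T2F3 libraries. Oasl1 and Bst2 passed the test in MPP alone, and Oas2, Oas3, Parp14, Rtp4 and Xaf1 in GMP alone. Of these 7, the difference between populations passed its own test for Oas2, which is described below. The 8 genes called higher in neither population were Ifih1, Ddx58, Eif2ak2, Oasl2, Ifit2, Herc6, Trim25 and Dtx3l. Of the 26 genes with a RefSeq promoter, 18 were called higher in at least 1 population, and 10 of the 18 held the response element core while 8, among them Irf7, Irf9 and Cmpk2, did not. Ifit3 is also among the 10. The 8 genes called higher in neither population all had a promoter, and 0 held the core. Over all tested genes with a promoter the core was held by 5.34% of those called higher in at least 1 population and by 2.71% of the others.

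**Figure D2:**
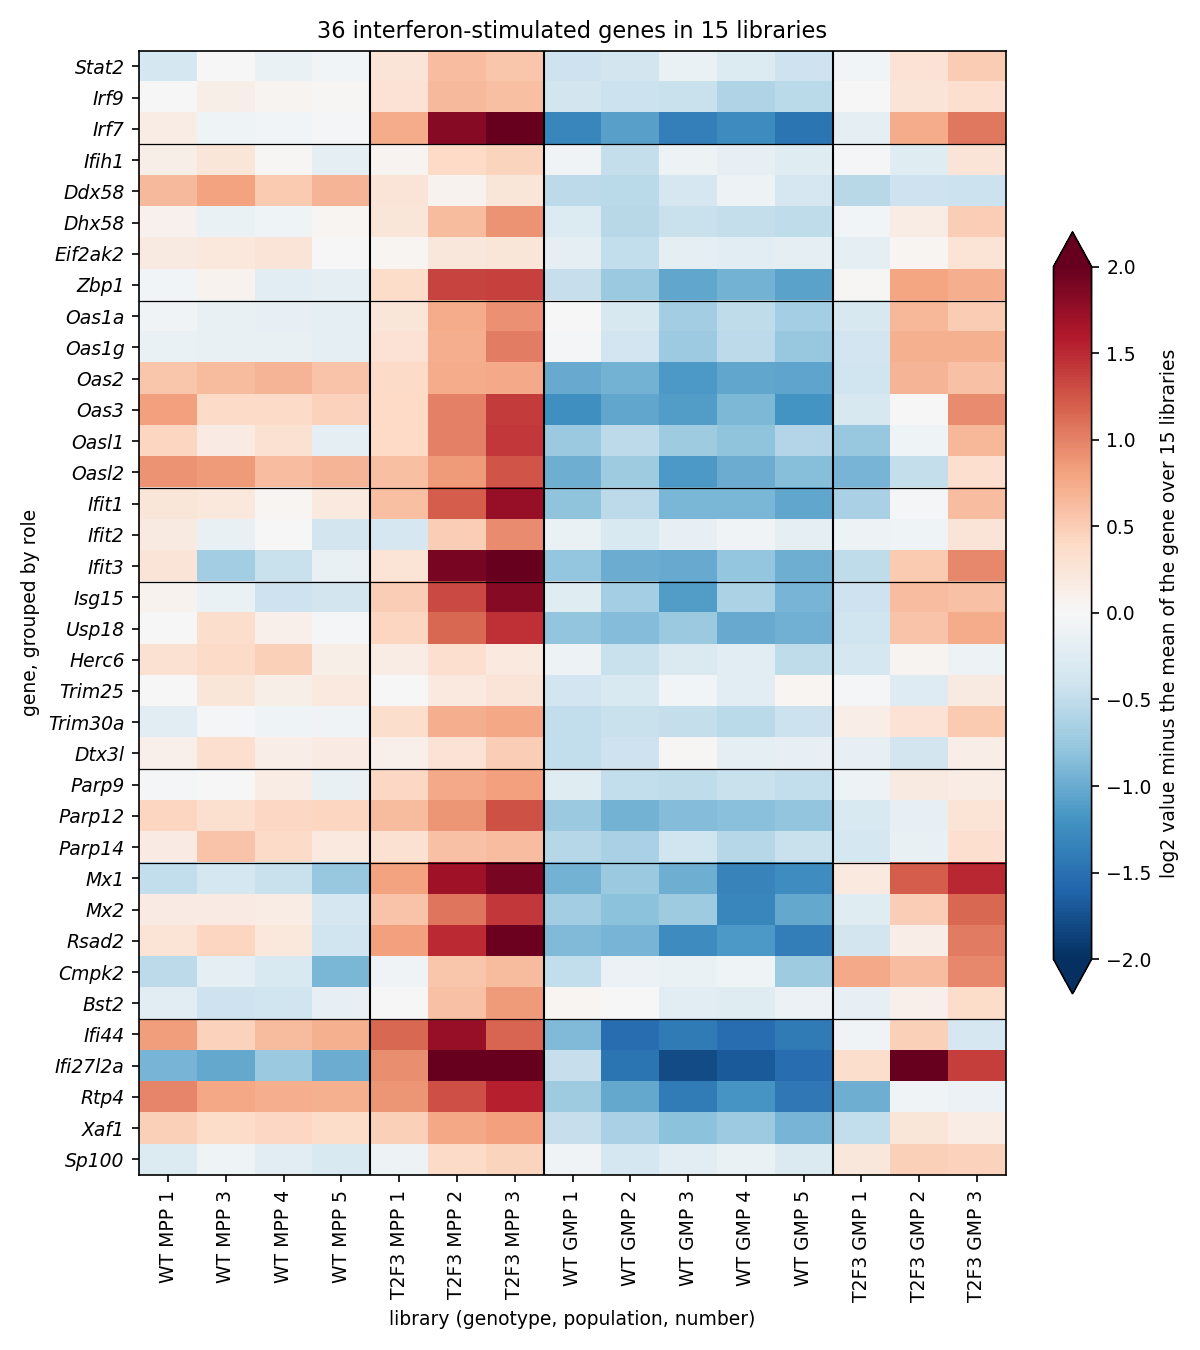
Level of each of the 36 genes in each of the 15 libraries, as the log2 value minus that gene's mean over all libraries, with colours capped at 2 in either direction. Columns are grouped by genotype and population and rows by role. WT GMP columns are the bluest, and T2F3 MPP 2 and T2F3 MPP 3 the reddest.

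All 3 genes of signalling and transcription were higher in T2F3 in both populations. Irf7, the factor that amplifies interferon production, moved most. Irf7 stood at 7.44, 7.20, 7.23 and 7.26 in WT MPP and at 8.03, 9.11 and 9.62 in T2F3 MPP. In GMP it stood at 5.98, 6.21, 5.93, 6.04 and 5.84 in WT and at 7.12, 8.03 and 8.34 in T2F3. Every T2F3 library lay above every WT library of its population. The difference was 1.64 ± 0.29 (SE; 3.11-fold, limma adjusted p = 5.68e-04) in MPP and 1.83 ± 0.28 (3.56-fold, adjusted p = 2.24e-04) in GMP. Stat2, which carries the signal from the receptor, stood at 9.14 to 9.48 in WT MPP, 9.75 to 10.11 in T2F3 MPP, 9.07 to 9.36 in WT GMP and 9.43 to 9.99 in T2F3 GMP. Its difference was 0.61 ± 0.13 in MPP and 0.56 ± 0.12 in GMP (limma, adjusted p = 0.00214 and 0.00530). Irf9, the DNA-binding partner of Stat2, was higher by 0.46 ± 0.10 in MPP and by 0.68 ± 0.10 in GMP (limma, adjusted p = 0.00244 and 9.73e-05), and for Irf9 too the libraries of the genotypes did not overlap.

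The 5 genes for sensors of viral nucleic acid, counting the kinase gene Eif2ak2, were split. In each population 2 of the 5, Zbp1 and Dhx58, were higher. Zbp1, a sensor of nucleic acids in the left-handed Z form, stood at 5.95, 6.08, 5.79 and 5.80 in WT MPP and at 6.37, 7.36 and 7.37 in T2F3 MPP. In GMP, Zbp1 ran from 4.93 to 5.55 in WT and from 6.02 to 6.79 in T2F3, again without overlap. Zbp1 differed by 1.13 ± 0.24 in MPP (2.19-fold, limma adjusted p = 0.00192) and by 1.36 ± 0.23 in GMP (2.57-fold, adjusted p = 4.92e-04). Dhx58, which tunes the other RNA helicases, was higher by 0.61 ± 0.14 in MPP and 0.65 ± 0.14 in GMP (limma, adjusted p = 0.00401 and 0.00383).

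Ddx58, which encodes the viral RNA sensor RIG-I, went the other way in MPP. It stood at 8.95, 9.10, 8.82 and 8.98 in WT MPP and at 8.56, 8.38 and 8.54 in T2F3 MPP, so that every T2F3 library lay below every WT library. The difference was -0.47 ± 0.11 in MPP (limma, adjusted p = 0.00314). In GMP the values of Ddx58 overlapped, at 7.75 to 8.20 in WT and 7.75 to 7.88 in T2F3, with a difference of -0.10 ± 0.10 (adjusted p = 0.554). The second viral RNA helicase, Ifih1 (MDA5), differed by 0.25 in MPP and 0.20 in GMP, neither past the threshold. Eif2ak2, the kinase PKR that stops translation on sensing double-stranded RNA, stood at 9.32 to 9.57 in WT MPP and 9.36 to 9.56 in T2F3 MPP, a difference of 0.01 with a 95% interval from -0.23 to 0.25.

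Of the 6 genes of the oligoadenylate synthetase family, 3 were higher in T2F3 MPP and 4 in T2F3 GMP. Some enzymes of this family make a messenger that activates an RNA-degrading nuclease. Oas1a stood at 8.38, 8.30, 8.29 and 8.25 in WT MPP and at 8.68, 9.20 and 9.37 in T2F3 MPP. In GMP, Oas1a stood at 8.45, 8.12, 7.76, 7.94 and 7.78 in WT and at 8.13, 9.11 and 8.96 in T2F3. The libraries lay apart in MPP and overlapped in GMP, where the first T2F3 library fell among the WT values. Oas1a differed by 0.78 ± 0.21 in MPP and 0.72 ± 0.20 in GMP (limma, adjusted p = 0.0103 and 0.0239), and Oas1g by 0.83 in both (adjusted p = 0.0125 and 0.0200). Oas1a and Oas1g are close copies whose promoters share the printed element, and their reads may be split between them, so their values are uncertain and not independent. Oas3 stood at 8.03, 7.59, 7.59 and 7.67 in WT MPP, at 7.62, 8.22 and 8.62 in T2F3 MPP, at 5.99 to 6.31 in WT GMP and at 6.89, 7.23 and 8.16 in T2F3 GMP. Its difference was 0.43 ± 0.25 in MPP (adjusted p = 0.169) and 1.31 ± 0.24 in GMP (2.47-fold, limma adjusted p = 0.00112). Oasl2 differed by 0.15 in MPP and 0.58 in GMP, neither past the threshold.

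Among the 3 IFIT genes, whose proteins bind viral RNA and block its translation, Ifit1 and Ifit3 were higher in both populations. Ifit3 stood at 4.35, 3.39, 3.64 and 3.93 in WT MPP and at 4.37, 5.99 and 6.49 in T2F3 MPP. In GMP, Ifit3 stood at 3.32, 3.09, 3.07, 3.31 and 3.10 in WT and at 3.59, 4.62 and 5.05 in T2F3. The first T2F3 library lay just above the highest WT library in MPP, at 4.37 against 4.35. In GMP it also lay above the highest WT library, at 3.59 against 3.32. Ifit3 differed by 1.79 ± 0.40 in MPP (3.46-fold, limma adjusted p = 0.00300) and by 1.24 ± 0.38 in GMP (2.36-fold, adjusted p = 0.0378). Ifit3 averaged 3.47 over the WT libraries, under the filter of 4, and 4.09 over all libraries. It thus entered the test only through the T2F3 libraries, and its tests carry no weight as support. Without Ifit3 the counts of genes higher in T2F3 were 22 of 35 in MPP and 25 of 35 in GMP. In a fit without a filter Ifit3 was called in MPP (adjusted p = 0.0058) and not in GMP (adjusted p = 0.0660). Ifit1 differed by 1.02 ± 0.26 in MPP and 0.82 ± 0.25 in GMP (limma, adjusted p = 0.00657 and 0.0322). Ifit2 stood at 7.56 to 8.10 in WT MPP and at 7.59, 8.42 and 8.87 in T2F3 MPP, and its difference of 0.45 did not pass the test (adjusted p = 0.0940). Ifit3 has a close copy in the mouse genome, and its reads may be shared with it.

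In the group around Isg15, 3 of the 6 tested genes were higher in each population: Isg15 itself, the protease Usp18, which removes Isg15 and damps the receptor, and Trim30a, a TRIM family protein. Isg15 stood at 5.58, 5.38, 5.09 and 5.14 in WT MPP and at 6.01, 6.83 and 7.33 in T2F3 MPP. In GMP, Isg15 stood at 5.27, 4.84, 4.39, 4.88 and 4.58 in WT and at 5.10, 6.12 and 6.10 in T2F3. The libraries lay apart in MPP, while in GMP the first T2F3 library lay below the highest WT library. Isg15 differed by 1.42 ± 0.29 in MPP (2.68-fold, limma adjusted p = 0.00169) and by 0.98 ± 0.28 in GMP (1.97-fold, adjusted p = 0.0261). Usp18 was higher by 0.91 ± 0.24 and 1.18 ± 0.23 (limma, adjusted p = 0.00899 in MPP and 0.00221 in GMP). Trim30a, with little spread in WT, ran from 9.75 to 9.92 in WT MPP and from 10.32 to 10.74 in T2F3 MPP. In GMP, Trim30a ran from 9.42 to 9.53 in WT and from 10.10 to 10.49 in T2F3. Its difference was 0.73 ± 0.11 in MPP and 0.79 ± 0.10 in GMP (limma, adjusted p = 9.96e-05 and 3.93e-05). The mouse Isg15 ligase gene Herc6 and the ubiquitin ligase gene Trim25 were called in neither population, with differences of -0.09 and 0.02 in MPP and 0.18 and 0.15 in GMP.

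Of the 3 ADP-ribosyltransferase genes, 2 were higher in T2F3 MPP and 3 in T2F3 GMP. Parp9 was higher by 0.67 ± 0.11 in MPP and 0.51 ± 0.11 in GMP (limma, adjusted p = 2.87e-04 and 0.00346). Parp12 was higher by 0.53 ± 0.14 and 0.77 ± 0.14 (limma, adjusted p = 0.00937 and 9.19e-04), and for both genes T2F3 libraries lay above WT libraries in each population. Parp14 differed by 0.17 ± 0.14 in MPP (adjusted p = 0.332) and by 0.47 ± 0.14 in GMP (limma, adjusted p = 0.0272). Dtx3l, whose protein works as a pair with that of Parp9, differed by 0.11 in each population, neither past the threshold.

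Direct antiviral effectors held some of the largest differences: 5 of 5 were higher in T2F3 MPP and 4 of 5 in T2F3 GMP. Mx1, a dynamin-like GTPase gene that C57BL/6 mice carry in a defective form, stood at 6.03, 6.17, 6.08 and 5.77 in WT MPP and at 7.33, 8.21 and 8.42 in T2F3 MPP. In GMP, Mx1 stood at 5.58, 5.77, 5.54, 5.19 and 5.28 in WT and at 6.71, 7.73 and 8.02 in T2F3. Every T2F3 library exceeded every WT library of its population. The difference was 1.97 ± 0.28 in MPP (3.93-fold, limma adjusted p = 5.69e-05) and 2.01 ± 0.26 in GMP (4.04-fold, adjusted p = 4.42e-05). Rsad2 (viperin), which makes a chain-terminating nucleotide, stood at 4.81 to 5.64 in WT MPP, 6.04 to 7.17 in T2F3 MPP, 3.83 to 4.33 in WT GMP and 4.85 to 6.25 in T2F3 GMP. It differed by 1.30 ± 0.30 and 1.39 ± 0.28 (limma, adjusted p = 0.00357 and 0.00304). Mx2 differed by 0.98 ± 0.27 in MPP and 1.38 ± 0.26 in GMP, and Cmpk2, a nucleotide kinase gene that neighbours Rsad2, by 0.85 and 1.08, all past the threshold. Bst2 (tetherin), which holds budding virus at the cell surface, stood at 8.71, 8.51, 8.52 and 8.75 in WT MPP and at 8.91, 9.51 and 9.77 in T2F3 MPP, a difference of 0.77 ± 0.16 (limma, adjusted p = 0.00213). In GMP, Bst2 ran from 8.68 to 8.96 in WT and from 8.76 to 9.29 in T2F3, with a difference of 0.21 ± 0.16 (adjusted p = 0.388).

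Of the 5 remaining genes, 3 were higher in T2F3 MPP and 5 in T2F3 GMP. Ifi27l2a, which encodes a small membrane protein, showed the largest difference of the 36 in both populations. It stood at 5.41, 5.32, 5.60 and 5.34 in WT MPP and at 7.27, 8.81 and 8.91 in T2F3 MPP, and in GMP at 5.87, 4.88, 4.54, 4.65 and 4.80 in WT and at 6.69, 9.20 and 7.71 in T2F3. The libraries lay apart in both, and the first T2F3 library was the lowest of its group. The difference was 2.91 ± 0.47 in MPP (7.53-fold, limma adjusted p = 2.46e-04) and 2.92 ± 0.45 in GMP (7.56-fold, adjusted p = 2.65e-04). Ifi44 was higher by 0.69 ± 0.20 in MPP and 1.37 ± 0.19 in GMP (limma, adjusted p = 0.0132 and 8.03e-05). Rtp4, a chaperone gene, and Xaf1, a gene of cell death control, differed by 0.44 and 0.28 in MPP, not past the threshold, and by 0.76 and 0.68 in GMP (limma, adjusted p = 0.0232 and 0.00579). Sp100, a gene of nuclear bodies, was higher by 0.47 and 0.60.

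**Figure D3:**
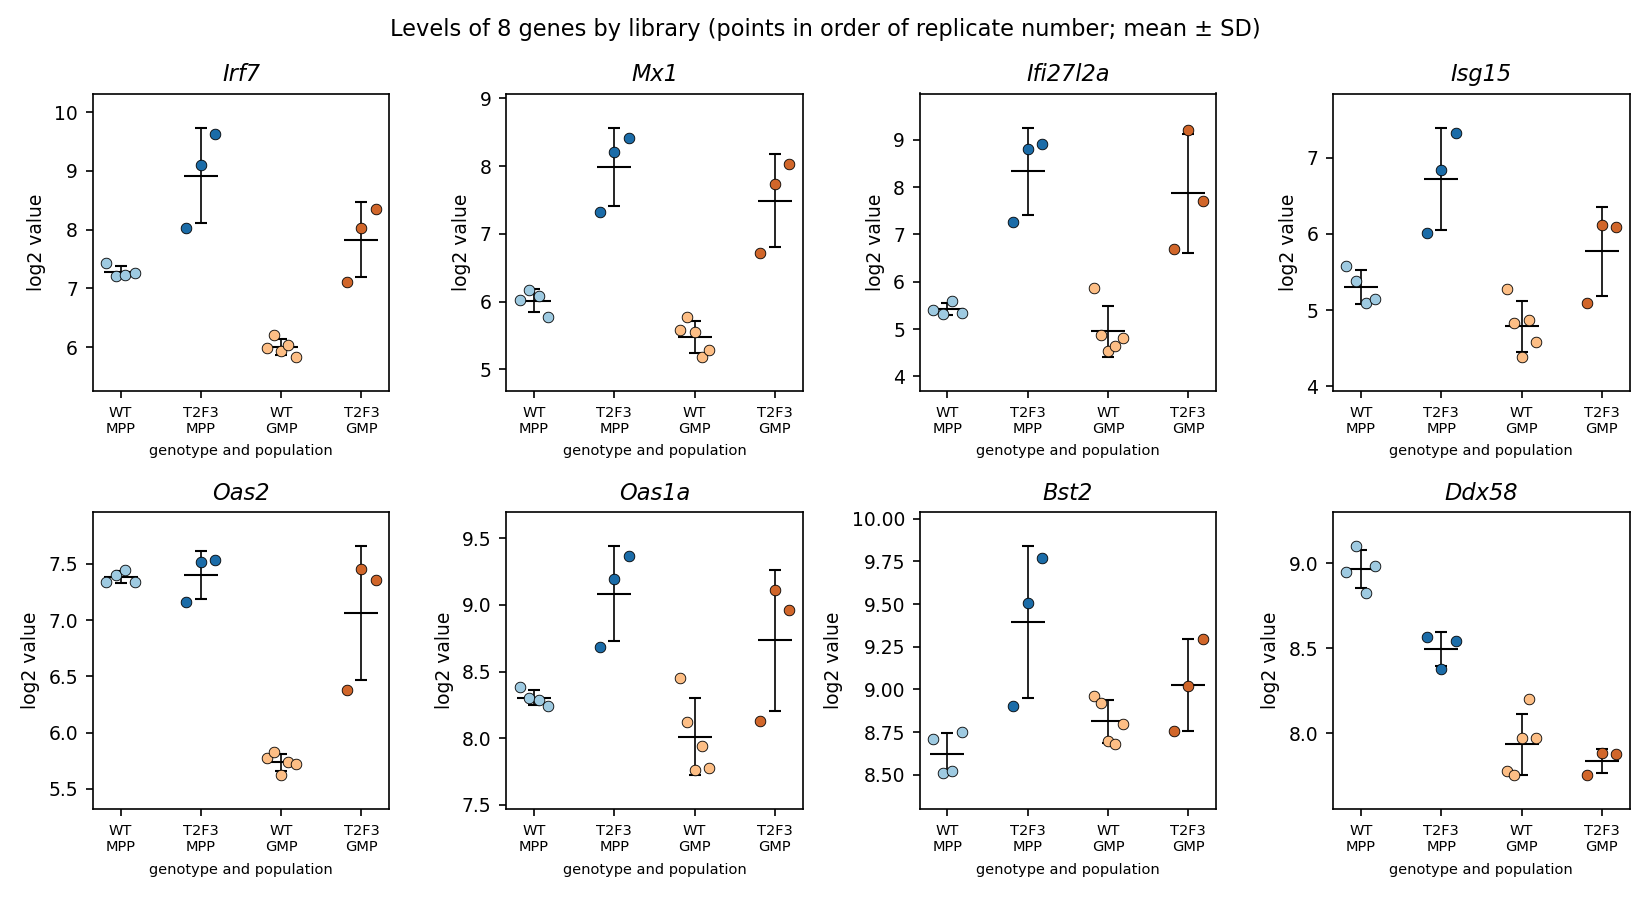
Log2 level of 8 of the genes in each library, by group, with points in order of replicate number from left to right and bars for the mean ± SD. T2F3 libraries of Irf7, Mx1 and Ifi27l2a lie above WT libraries in both populations, those of Oas2 in GMP, and those of Ddx58 lie below them in MPP.

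Whether the genotype difference itself differed between GMP and MPP was tested for each gene. 1 of the 36 passed, Oas2, where 1.38% of all tested genes had a larger difference in GMP and 0.882% a smaller one, and 0 of the 36 passed in the other direction. At an unadjusted p under 0.05 there were 4 and 1. Oas2 stood at 7.34, 7.41, 7.45 and 7.34 in WT MPP, at 7.16, 7.51 and 7.54 in T2F3 MPP, at 5.77, 5.83, 5.62, 5.74 and 5.72 in WT GMP and at 6.38, 7.45 and 7.36 in T2F3 GMP. WT GMP alone stood low, and 2 of the 3 T2F3 GMP libraries were at the level of MPP. Its genotype difference was 0.02 ± 0.19 in MPP (95% interval -0.38 to 0.43) and 1.33 ± 0.18 in GMP (2.51-fold, limma adjusted p = 7.04e-05), and the difference of these was 1.31 (95% interval 0.75 to 1.86, adjusted p = 0.0175). Without the third T2F3 GMP library that difference of effects was 1.16 and its adjusted p 0.0554, while leaving out each other library in turn kept it past the threshold. Bst2 lay on the other side, at -0.56 with a 95% interval from -1.04 to -0.08, which did not pass after adjustment (adjusted p = 0.197).

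In WT the antiviral genes fell from MPP to GMP. Of the 36, 24 were lower in WT GMP and 0 higher, where 23.2% of all tested genes were lower and 25.4% higher. At an unadjusted p under 0.05 there were 26 lower and 0 higher. The median difference was -0.58, against 0.03 over all tested genes, and 11 of the 24 were more than 2-fold lower (5.71% of all tested genes). The libraries of 24 genes lay apart, with GMP below MPP, where 20.4% of all tested genes did. Ifi44 fell by 2.01 on the log2 scale (4.02-fold, limma adjusted p = 1.24e-07), Rtp4 by 1.94 (3.84-fold, adjusted p = 6.02e-07), Oasl2 by 1.70, Oas2 by 1.65 and Oas3 by 1.60. The sensor gene Ddx58 fell by 1.03 (2.04-fold, limma adjusted p = 2.04e-07). Stat2, Oas1a, Oas1g, Ifit3, Isg15, Mx1, Cmpk2, Bst2, Ifi27l2a, Sp100, Ifih1 and Ifit2 did not pass the test over the WT step.

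From T2F3 MPP to T2F3 GMP, 15 of the 36 were lower and 0 higher, where 11.7% of all tested genes were lower and 10.5% higher, and 21 were lower at an unadjusted p under 0.05. The median difference was -0.51, and the libraries of 8 genes lay apart, against 17.4% of all tested genes. Lower over the step in both genotypes were 14 genes: Irf9, Irf7, Ddx58, Oasl1, Oasl2, Ifit1, Dtx3l, Parp9, Parp12, Parp14, Rsad2, Ifi44, Rtp4 and Xaf1. The T2F3 count depended on single libraries. It was 23 without the first T2F3 MPP library and 8 without the third, 9 without the second T2F3 MPP library, and 8 without the first T2F3 GMP library. Without the third T2F3 MPP or the first T2F3 GMP library the calls of Irf7 (-0.74 and -0.73), Isg15 (-0.65 and -0.62), Oasl1 (-0.76 and -0.65), Parp14 (-0.50 and -0.40), Rsad2 (-0.89 and -0.84), Irf9 (-0.27 and -0.22) and Dtx3l (-0.33 and -0.42) ended. Without the second T2F3 MPP library these ended except Rsad2, with Irf7 at -0.99. Irf9 and Dtx3l also lost their calls without the second T2F3 GMP library (-0.34 and -0.31) and without several single WT libraries, at -0.32 and -0.43 and adjusted p from 0.0518 to 0.0574. These step contrasts share libraries with the genotype contrasts. Side by side, WT GMP had the lowest of the 4 group means for 32 genes and T2F3 MPP the highest for 32. In 20 genes the T2F3 GMP mean was at or above the WT MPP mean, with a median difference over the 36 of 0.13 and a range from -1.18 (Rtp4) to 2.45 (Ifi27l2a).

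T2F3 libraries of each population were unequal in these genes. The median of the 36 genes above their WT mean was 0.27, 0.76 and 0.89 in the 3 T2F3 MPP libraries and 0.32, 0.79 and 1.01 in the 3 T2F3 GMP libraries, while WT libraries lay between -0.077 and 0.11. In the first T2F3 MPP library 25 of the 36 genes stood above the WT mean, and in the other two 35 and 34. The first T2F3 MPP library was the lowest of its group in 35 of the 36 genes, against 45.2% of all tested genes, and the first T2F3 GMP library in 31, against 26.3%. The median SD over libraries was 0.34 in T2F3 MPP and 0.41 in T2F3 GMP, where all tested genes had 0.12 and 0.18. In WT MPP and WT GMP the median SD of the 36 genes was 0.13 and 0.16, where all tested genes had 0.11 and 0.17.

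Single libraries decided part of the calls. Without the third T2F3 MPP library 15 of the 23 genes higher in MPP remained, where 12.1% of all tested genes were higher. The calls of 8 genes ended, with log2 differences of 0.74 for Ifit1, 0.69 for Usp18, 0.79 for Mx2, 0.64 for Oas1a, 0.66 for Oas1g, 0.36 for Parp12, 0.53 for Oasl1 and 0.37 for Sp100 and adjusted p from 0.0518 (Ifit1) to 0.175 (Oasl1). Without the second T2F3 MPP library the calls of Ifi44 (0.50), Oasl1 (0.73) and Sp100 (0.40) ended, and leaving out the third or the fifth WT MPP library ended that of Oasl1. In GMP, 19 of the 26 genes remained without the third T2F3 library, where 7.53% of all tested genes were higher. The 7 calls that ended were those of Isg15 (0.82), Ifit3 (0.92), Ifit1 (0.51), Oas1a (0.61), Oas1g (0.65), Parp14 (0.27) and Rtp4 (0.62), with adjusted p from 0.0874 (Oas1a) to 0.154 (Ifit1). Without the second T2F3 GMP library the calls of these genes other than Parp14 ended, and Ifit3 (at 1.21 to 1.27) also lost its call without any 1 of the WT GMP libraries numbered 2 to 5. Leaving out WT GMP 3 or WT GMP 5 also ended the GMP calls of Ifit1, Isg15 (0.88 and 0.93), Oas1a and Rtp4, leaving out WT GMP 4 that of Ifit1, and leaving out WT GMP 2 or 4 that of Parp14 (0.44 and 0.46). Other models ended some of the same calls. In MPP the ribosomal covariate ended those of Oas1a, Oas1g, Ifi44 and Oasl1. In GMP the same covariate ended that of Ifit3, fitting the 2 groups alone ended those of Oas1a, Oas1g, Ifit1, Parp14 and Rtp4, array weights those of Ifit1, Ifit3 and Parp14, fitting without the filter or with a pseudocount of 8 that of Ifit3, and quantile normalization that of Ifit1. The calls of Irf7, Stat2, Irf9, Zbp1, Dhx58, Mx1, Rsad2, Trim30a, Parp9, Cmpk2 and Ifi27l2a held in both populations whichever library was left out.

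**Figure D4:**
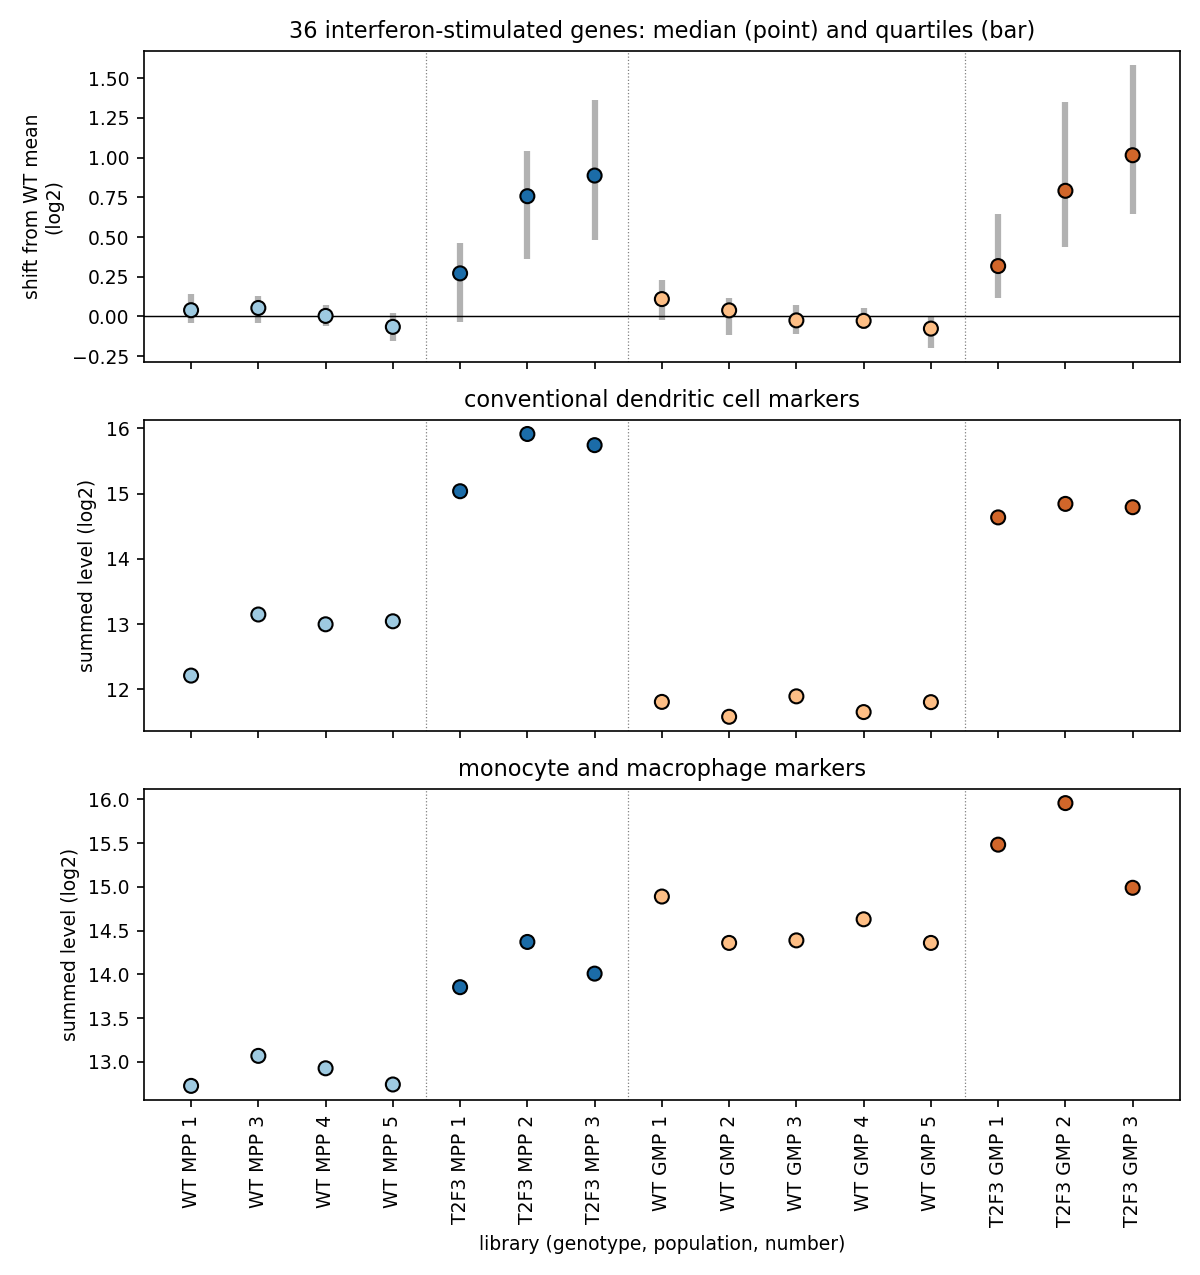
Top, median and quartiles over the 36 genes of each library's log2 value minus the WT mean of its population; middle and bottom, log2 of the summed level of conventional dendritic cell markers and of monocyte and macrophage markers in the same libraries. T2F3 MPP 1 and T2F3 GMP 1 lie lowest of their groups in the top panel, and all T2F3 libraries lie above all WT libraries of their population in each panel.

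Markers of some other cell types that a progenitor gate could hold moved with the genotype. Over all tested genes 20.7% were higher and 19.6% lower in T2F3 MPP, and 9.25% and 6.04% in T2F3 GMP. All 8 conventional dendritic cell markers were higher in T2F3 in both populations, with a median difference of 2.61 in MPP and 2.82 in GMP. Their summed level was 12.21 to 13.15 in WT MPP, 15.04 to 15.91 in T2F3 MPP, 11.58 to 11.89 in WT GMP and 14.64 to 14.84 in T2F3 GMP. Of 8 tested monocyte and macrophage markers, 7 were higher in MPP and 6 in GMP, and their summed level ran from 12.73 to 13.07, 13.85 to 14.37, 14.36 to 14.89 and 14.99 to 15.96 in the same groups. Plasmacytoid dendritic cells, the main makers of interferon, were followed with 8 markers, of which 5 passed the filter and 1 (Irf8) was higher in MPP and 2 (Irf8 and Tcf4) in GMP. In MPP the difference was above 0 for 1 of the 5, with a median of -0.255. In GMP it was above 0 for 3 of the 5, with a median of 0.37. The summed level of the 8 markers was 11.57 to 11.92, 12.34 to 13.13, 11.72 to 12.22 and 12.63 to 13.05 in the same groups. Irf8 alone of the 5 tested markers was above WT in MPP, so the higher sum there is no rise of the other tested markers. The defining marker Siglech differed by -0.51 in MPP (limma, adjusted p = 0.106) and -0.04 in GMP (adjusted p = 0.938). Of 5 tested B cell markers 4 were lower in T2F3 MPP and 3 in T2F3 GMP. Late neutrophil markers, 8 tested, were higher for 0 and lower for 1 in T2F3 MPP, with a median difference of 0.016. In GMP 0 of them were called, but 7 of the 8 differences were above 0, with a median of 0.67. At an unadjusted p under 0.05, 3 late neutrophil markers were higher and 0 lower in T2F3 GMP. T and NK cell markers, 4 tested, were higher for 0 and lower for 2 in T2F3 MPP, and 0 were called in GMP. No marker on these lists was listed at 0 in all libraries. The part of these cells in the antiviral differences was not tested, and in bulk RNA more cells of a type cannot be told apart from more RNA per cell.

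The genes around the antiviral set moved less evenly. For the counts here and in the next paragraph, 20.7% of all tested genes were higher and 19.6% lower in T2F3 MPP, and 9.25% and 6.04% in T2F3 GMP. All 14 interferon genes followed lay below the filter, and 9 of them, Ifnb1, Ifna1, Ifna2, Ifna4, Ifna5, Ifna9, Ifne, Ifnl2 and Ifnl3, were listed at 0 in all libraries. Of 9 genes for interferon receptors and their kinases, 4 were higher and 1 lower in T2F3 MPP, and 3 were higher in T2F3 GMP. Ifngr2, a chain of the interferon-gamma receptor, was higher by 0.44 ± 0.10 in MPP and 0.29 ± 0.09 in GMP (limma, adjusted p = 0.00282 and 0.0459). The type I receptor genes Ifnar1 and Ifnar2 differed by 0.01 and 0.07 in MPP and by 0.13 and 0.23 in GMP, not past the threshold. Jak1 was lower in MPP by 0.42 ± 0.12 (limma, adjusted p = 0.0127; 10.82 in T2F3 against 11.24 in WT).

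Of 5 further response factors, Irf5 alone was called, higher by 1.48 ± 0.13 in MPP and 1.32 ± 0.12 in GMP (limma, adjusted p = 4.10e-07 and 1.30e-06). Of 12 upstream sensors and adaptors, 5 were higher and 2 lower in MPP and 2 were higher in GMP. In MPP the response factors called higher and the sensors called lower were near the shares over all tested genes. The endosomal receptors Tlr3 and Tlr9 were higher in both populations, Tlr3 by 2.33 ± 0.22 and 2.51 ± 0.21 and Tlr9 by 1.42 ± 0.24 and 1.24 ± 0.23 in MPP and GMP. Of 7 brakes on the pathway 2 were higher in MPP, among them Socs1, an inhibitor of the receptor kinases, by 0.99 ± 0.16 (limma, adjusted p = 2.37e-04), and 0 passed in GMP, where 1 was higher at an unadjusted p under 0.05. Of 30 further interferon-stimulated genes tested, 13 were higher in MPP and 15 in GMP and 0 lower in either, with median differences of 0.26 and 0.34. Slfn2 and Slfn5, members of the Schlafen family of growth regulators, were higher by 2.36 and 1.81 in MPP and by 1.44 and 2.33 in GMP.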

How the data were processed

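A single table from the authors gives log2 values of 24424 Entrez gene IDs in 15 RNA libraries. The table's name marks them as regularized log values, which shrink low genes. The values lie between -3.82 and 19.64, with 5135 genes at 0 throughout. The submitters' processing notes name Bowtie, HOMER, STAR, DESeq2 and mm9 without versions or roles. The table holds no counts, so depth is unknown. RefSeq symbols (GRCm38.p6) were matched for 24345 IDs; promoter coordinates are of that build, not of mm9. The other 41 of 56 samples were not analysed here.

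Testing was limited to genes averaging 4 or more and used limma 3.58.1 in R 4.3.3, with 1 mean per group over all libraries, trend and robust moderation and 5 contrasts. Tests were two-sided with a threshold of 0.05. The code was tested on simulated data. The gene set, pathway and marker lists were chosen with earlier results of these data known. Within each role, genes described in full were the 3 largest and the smallest mean genotype difference, plus those passing the test between populations or opposing the main direction. Alternatives changed the filter, the scaling, the model and the libraries used.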

Additional observations from a re-analysis of the deposited data

Results flagged for a closer look

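The genotype difference of Oas2 was larger in GMP than in MPP by 1.31 on the log2 scale (limma's test of the difference itself, adjusted p = 0.0175). In 6 of 72 sets of 4 or 5 WT libraries, 1 library stood far from the others, where chance gives about 1 in 20. In WT MPP these were Parp12 at 7.81 in library 3 and Mx2 at 4.82 in library 5, both the lowest of their group. In WT GMP, library 1 was the highest for Parp9 (8.83), Ifi44 (6.30) and Ifi27l2a (5.87), and library 2 the lowest for Eif2ak2 (8.81). The same WT GMP 1 library stood apart in ribosomal protein genes, at a median of 1.03 above the other WT GMP libraries.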

How the results depend on the processing

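Leaving out 1 library at a time, the genes called higher in T2F3 numbered 15 to 25 in MPP and 19 to 29 in GMP, and those called lower 1 and 0. For the difference of effects 0 to 1 genes passed in each direction. Over the WT step 23 to 26 were lower and 0 higher, and over the T2F3 step 8 to 23 were lower and 0 higher. The difference of effects gave 2 genes with the ribosomal protein level as a covariate, and 2 in the other direction with array weights. The T2F3 step gave 33 lower genes with array weights and 8 with its groups fitted alone. The cause was not tested. Fitted alone, the 2 groups of a comparison give no difference of effects.

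Libraries of the same genotype and number in MPP and GMP had correlated deviations of 0.055 to 0.464 over genes, and 9 of 14 correlated best with their own number (a hint from the data, not the design). The labels do not say that numbers mark animals, and 2 of the 7 correlations were under 0.1 (0.055 and 0.059), so the numbers were not taken as pairs. With genotype and number as 1 animal (replicate block by correlation), 23 genes were higher in MPP, 26 in GMP and 20 lower over the T2F3 step. Every genotype call was kept. A genotype comparison within 1 population holds at most 1 library of each such animal, so keeping these calls is a weak check. With the number alone as a replicate block, 19 genes were higher and 1 lower in MPP, 20 higher in GMP, and 18 lower and 1 higher over the T2F3 step. That block ended the calls of Oas1a, Oas1g, Ifi44 and Oasl1 in MPP and of Oas1a, Oas1g, Ifit1, Ifit3, Isg15 and Rtp4 in GMP.

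Among the 31 genes chosen for description in full, the sign of the genotype difference changed only for differences in MPP that were not called. The signs of the other tested genes, among them Dtx3l, were not followed. Eif2ak2 became -0.049 after centring, -0.009 after quantile normalization, and -0.044, -0.018 and -0.028 without WT MPP 5, T2F3 MPP 2 and T2F3 MPP 3. Oas2 became -0.037 and -0.064 under these scalings, -0.046 with the replicate block, -0.072 with the ribosomal covariate, and -0.033 and -0.046 without T2F3 MPP 2 and 3. Trim25 became -0.040 after centring and -0.027, -0.004 and -0.035 without WT MPP 1, T2F3 MPP 2 and T2F3 MPP 3, and Oasl2 -0.029 without T2F3 MPP 3. Without T2F3 MPP 1 the same differences were highest, at 0.075 for Eif2ak2, 0.143 for Oas2, 0.094 for Trim25 and 0.299 for Oasl2. Depth is unknown, so differences of genes with few reads are understated by an unknown amount.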
